A study of Mus musculus with 2 samples.

Results

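The 10 genes described here encode enzymes that make, elongate, desaturate or activate fatty acids, together with a transcription factor that controls such genes. They were taken by symbol as a set (Acly, Acaca, Fasn, Elovl6, Elovl1, Scd1, Scd2, Acsl4, Me1 and Srebf1), 10 of the 32285 features in the spatial transcriptomes of 2 mouse lungs. All 10 had counts in both sections and each symbol stood for 1 feature. The data were Visium counts, in which RNA from a tissue section is captured by barcoded spots 100 µm apart, so that a spot can hold several cells of different types. In bulk spots, fewer cells of a type and less RNA per cell cannot be told apart.

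The study's lung metastasis model used female Balb/c mice of 6 to 8 weeks that received 1000000 cells of the mouse mammary tumour line 4T1, placed in the fat pad of the mammary gland (m.f.p.), and lungs were taken after 21 to 23 days. The control lung is labelled as having had no treatment. How closely its mouse matched the tumour-bearing one in age is not in the labels. There was 1 section per condition, so spots are not replicates, no test between conditions could be made, and every interval below covers counting error only. The control section held 1888 spots and 20329126 counts (median of 9643.5 per spot) and the metastatic section 1110 spots and 14657881 counts (median of 11334.5), and 858 spot barcodes were shared because both arrays use the same positions.

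Spots were sorted by marker genes that did not include the 10 genes. The metastatic core was the 6% of spots highest in tumour over lung structure markers that had a neighbour of the same kind, and held 59 spots in 3 groups of 54, 3 and 2. The margin was the 75 spots within 200 µm of the core, and far lung the 926 spots over 500 µm away. Airway spots were the highest 10% by club and ciliated cell markers (189 in the control and 104 in the metastatic section), and AT2-rich spots the highest 20% of the rest by Sftpc and Lamp3 (340 and 173). The other alveolar spots (1078 and 506) left out the highest 5% of spots by adipocyte, cardiac muscle, smooth muscle, B cell or mesothelium markers. AT2-rich spots kept such spots: in the control section 7 by adipocyte, 6 by cardiac muscle, 22 by B cell and 26 by mesothelium markers. In the metastatic section airway, AT2-rich and other alveolar spots were all over 500 µm from the core. Mki67, a division gene of the tumour list, was at 1.16 counts per 10000 (CP10k) in the core against 0.120 in far lung. The summed tumour list, which also holds keratins such as Krt7, was 10.2 in the core, 8.08 in far lung and 12.3 over the control section, so its sum alone did not set the core apart. Lung structure genes summed to 42.0 CP10k in the core and 2533 in far lung. They include Scgb1a1, taken up below, which made up 22.9% of far-lung counts. Both lists were used to choose the core, so these values describe it and do not test it.

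A single transcript, the club cell secretoglobin Scgb1a1, set much of the scale. It made up 49.9% of counts in control airway spots and 51.2% in metastatic ones, 22.9% in far lung, 0.276% in the margin and 0.244% in the core. In alveolar spots it was 7.43% of counts in the control and 15.8% in the metastatic section. Ratios were therefore also computed with Scgb1a1 left out of the library size.

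Fatty acid synthesis starts from citrate exported from mitochondria. ATP citrate lyase (Acly) turns it into acetyl-CoA, acetyl-CoA carboxylase (Acaca) makes malonyl-CoA, and fatty acid synthase (Fasn) builds palmitate with NADPH, part of which comes from malic enzyme (Me1). Elovl6 lengthens palmitate, Elovl1 acts on very long chains, the stearoyl-CoA desaturases Scd1 and Scd2 place a double bond, and Acsl4 activates polyunsaturated fatty acids. Srebf1 encodes SREBP-1, a transcription factor for many of these genes. In the lung, alveolar type II (AT2) cells make surfactant, which is rich in palmitate-containing phospholipid, and adipocytes of mediastinal and peribronchial fat make fatty acids for storage.

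The 10 genes did not share 1 pattern. Fasn, Acaca, Scd1, Elovl6 and Me1 were far higher in a small set of adipocyte-marker spots of the control section. With all counts in the library size, Scd1, Scd2 and Elovl1 were lowest or near lowest in airway and core. Acly and Elovl6 were at least 1.5-fold higher in core and margin, and Fasn and Acsl4 in the margin. Of all genes tested, 33.0% in the core and 35.3% in the margin were so too. Without Scgb1a1 in the library size, only Elovl6, with 42 core and 21 margin counts, stayed past 1.5-fold in either. The plot of levels by kind of spot shows this gene by gene.

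**Figure D1:**
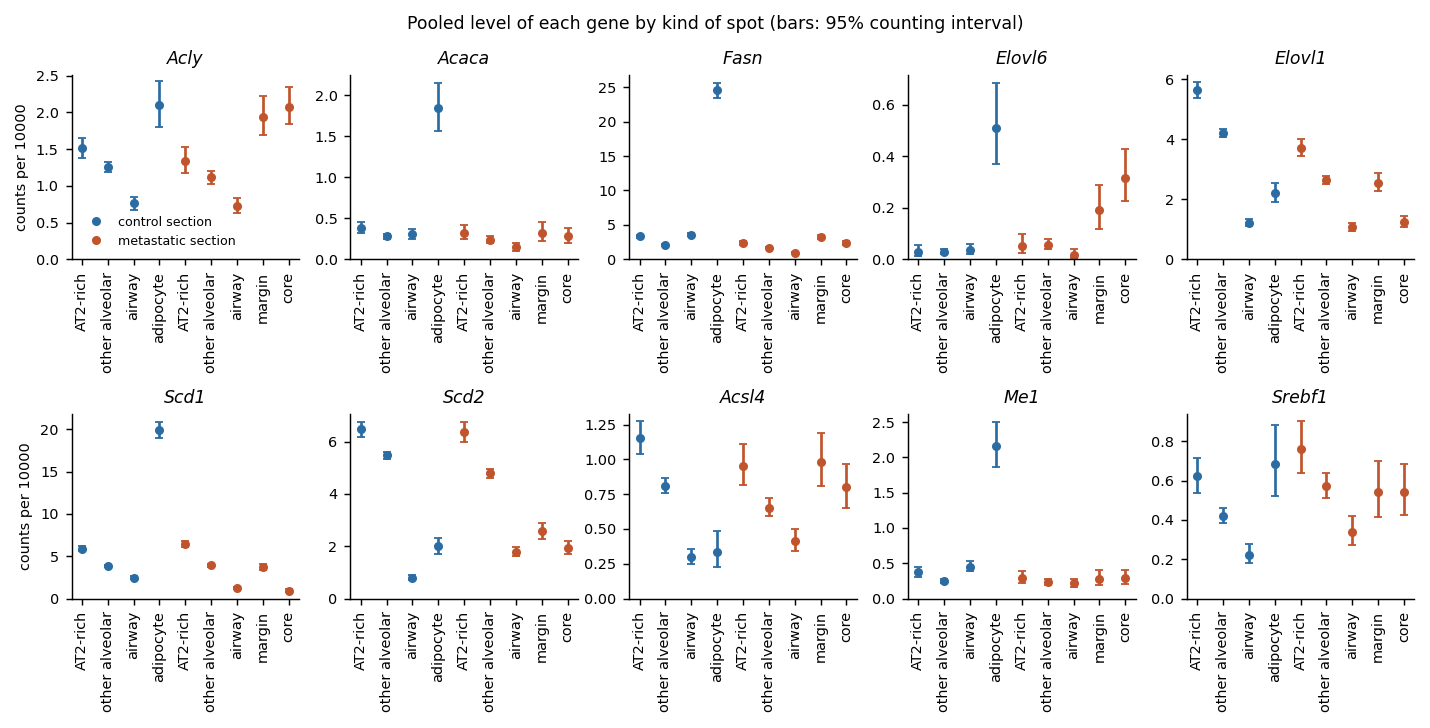
Pooled counts per 10000 (y axis, from 0, with its own scale per gene) of the 10 genes in 4 kinds of spot of the control section and 5 of the metastatic section (x axis), with 95% Poisson intervals as bars. Fasn stands at 24.6 in control adipocyte-marker spots and between 0.962 and 3.59 in every other kind shown, while Scd2 is highest in AT2-rich spots of both sections. Muscle-marker spots are not shown.

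The first question was which genes followed AT2 content. Fasn was 3.33 CP10k (3.13-3.53) in the AT2-rich spots of the control section and 2.10 in the other alveolar spots, a ratio of 1.59 (1.47-1.71). Scd1 was 5.91 against 3.85, a ratio of 1.54 (1.45-1.62), and in the metastatic section 6.47 against 3.95, a ratio of 1.64 (1.52-1.76). These were the members at or past 1.5-fold: 2 of 9 with at least 50 counts in the control and 1 of 9 in the metastatic section, where Fasn had a ratio of 1.38 (1.22-1.55). Of all genes with at least 50 counts over both groups, 3.99% were at least 1.5-fold higher and 1.81% lower in the control section, and 6.12% and 2.86% in the metastatic section. No member was 1.5-fold lower in AT2-rich spots in either section. With Scgb1a1 out of the library size, Fasn was at 1.51 and 1.20 and Scd1 at 1.46 and 1.43. With haemoglobin and other abundant genes out too, no member reached 1.5-fold in either section (Fasn 1.42 and 1.21, Scd1 1.37 and 1.44), nor did any in the control section with Lamp3 alone as the AT2 score. Red blood cell markers summed to 204 CP10k in AT2-rich and 848 in the other alveolar spots of the control section. Cardiac muscle markers were at 16.6 against 6.29 there, adipocyte markers at 1.03 against 0.513 and smooth muscle markers at 3.62 against 4.33. Spots highest in these lists had been kept out of the other alveolar spots but not of the AT2-rich spots. The sorting thus set part of these values. Alveolar type I cell markers summed to 64.8 against 60.0 CP10k in the control and 51.2 against 39.2 in the metastatic section. The part of these cell types was not tested.

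The other members were closer together. Srebf1 (1.48 and 1.33), Me1 (1.496, just under the limit, and 1.24), Acsl4 (1.42 and 1.46), Acaca (1.37 and 1.36), Elovl1 (1.34 and 1.41), Scd2 (1.18 and 1.33) and Acly (1.20 and 1.20) had ratios above 1 in both sections, control first. Of these, the metastatic intervals for Acaca and Me1 included 1. Without Scgb1a1 in the library size these 7 ratios lay between 1.12 and 1.42 in the control and between 1.05 and 1.27 in the metastatic section, where the intervals of Acly, Acaca, Srebf1 and Me1 included 1. Elovl6 had only 39 and 42 counts in these spots, too few to be compared. The median log2 ratio of the members was 0.51 and 0.45, beside 0.16 and 0.19 over all genes tested.

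Alveolar spots were also cut into 5 equal bins of AT2 score. Scd1 went from 2.75 to 6.13 CP10k in the control section, a ratio of 2.23 (2.03-2.45) between the highest and lowest bin, and by a ratio of 3.16 (2.79-3.59) in the metastatic section. Fasn differed by 2.00 (1.77-2.26) and 1.97 (1.64-2.36), Elovl1 by 1.83 and 2.13, and Scd2 by 1.55 and 1.97. Fasn, Acaca, Acly, Scd1, Scd2, Elovl1 and Acsl4 increased at each of the 4 steps in the control section. In the metastatic section Acly, Scd1 and Elovl1 did so, and Fasn, Acaca, Scd2 and Acsl4 increased at 3 of the 4. Scgb1a1 went the other way, from 1687 to 368 CP10k in the control section, and without it the Scd1 ratio was 1.92 and 2.22, the Fasn ratio 1.72 and 1.38, the Elovl1 ratio 1.58 and 1.49 and the Scd2 ratio 1.34 and 1.38. Ager, a gene of alveolar type I cells, differed between these bins too, by 1.43 and 2.01, and by 1.23 and 1.41 without Scgb1a1. A higher level in the highest bin was thus not limited to AT2 markers, and the part of alveolar tissue at large was not tested. Over single spots the relation was loose: Spearman's rho with the AT2 score was highest for Scd1, at 0.303 over 1418 control and 0.409 over 679 metastatic alveolar spots, given as a description since spots share a section.

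**Figure D2:**
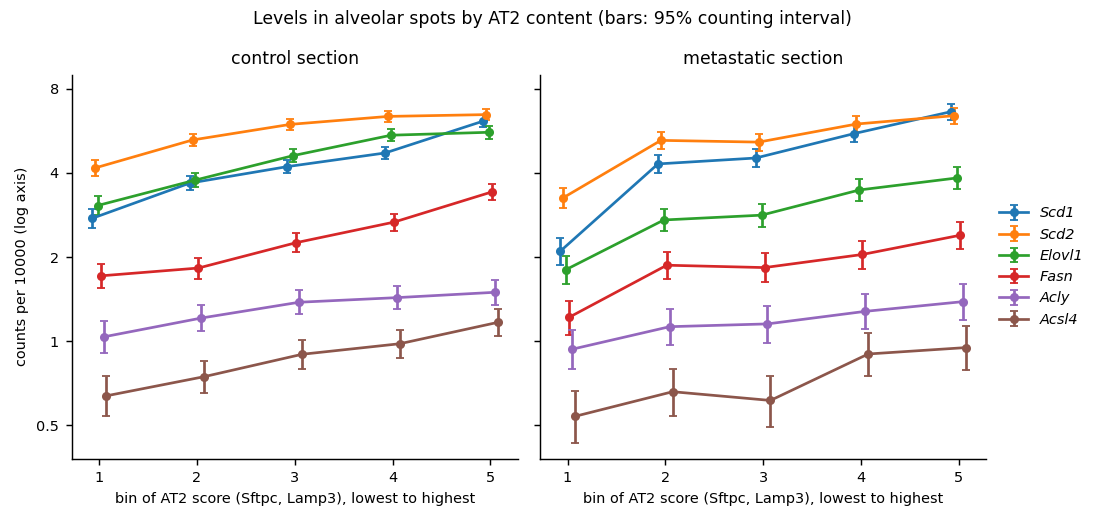
Counts per 10000 (log axis) of 6 of the genes in alveolar spots cut into 5 equal bins of AT2 score (x axis, lowest to highest), in the control and metastatic section, with 95% Poisson intervals. Scd1 climbs from 2.75 to 6.13 in the control section and meets Scd2 in the highest bin of the metastatic section.

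Among 50 further lipid genes, 45 could be compared in the control section, of which 7 were at least 1.5-fold higher in AT2-rich spots and none lower. These included Gpam, the first enzyme of glycerolipid synthesis (1.58, with 619 and 1291 counts), Fabp5, a fatty acid carrier (1.55), Thrsp, a lipogenic cofactor (1.82), and Dgat2, of triglyceride synthesis (1.55). Thrsp and Dgat2 were far higher in adipocyte-marker spots (below), which were kept out of the other alveolar spots but not of the AT2-rich ones. In the metastatic section 1 of 40 was higher (Hacd1, 1.68) and 1 lower (Acacb, 0.62). The median log2 ratio of this list was 0.25 and 0.24. Over all genes tested, 3.99% were higher and 1.81% lower in the control, and 6.12% and 2.86% in the metastatic section. The metastatic counts of the list were under these shares.

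The highest levels of Fasn lay elsewhere. In the 94 control spots that were the highest 5% by adipocyte markers (such as Adipoq, Cfd and Car3), Fasn was 24.6 CP10k, 10.3 times (9.76-10.9) its level in alveolar spots. Scd1 was 19.9 against 4.33 (ratio 4.59), Acaca 1.84 against 0.302 (6.09), Me1 2.17 against 0.278 (7.80), Acly 2.10 against 1.32 (1.59), and Elovl6 0.510 against 0.0284 (17.9, from 44 and 39 counts). Scd2 was lower, at 2.00 against 5.70 (0.352), as were Elovl1 (0.484) and Acsl4 (0.377). Srebf1 stood between, at 1.46 (1.10-1.91), and at 1.59 without Scgb1a1 in the library size. Thus 6 of 10 members were at least 1.5-fold higher and 3 lower, where 12.2% and 38.6% of all genes tested were. This comparison was added after the data were seen.

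These 94 spots carried 4.25% of all counts of the section but 34.7% of its Fasn counts (33.5-35.9%), 48.9% of Elovl6, 24.6% of Me1, 23.7% of Acaca and 19.7% of Scd1. By contrast they held 1.87% of Scd2, 1.90% of Acsl4 and 2.46% of Elovl1 counts. In the 19 spots of the highest 1%, Fasn reached 99.2 CP10k and Scd1 80.9, with Adipoq at 6.54, while Scd2 was at 1.65. The remaining 90% of spots had Fasn at 2.00 and Scd1 at 3.58. Most of these spots were adjacent: they formed 23 groups, the largest of 20 and 19 spots, where Fasn was 40.0 and 16.3 CP10k. Ucp1, the defining gene of brown fat, had 0 counts in both of these groups and 1 in the whole control section, in the highest 1% of spots. Cidea, another gene high in brown fat, had 66 of its 105 control counts in the 94 spots and was 2.80 CP10k in the highest 1% against 0.0129 in the lower 90%. In the metastatic section 11 of 12 Ucp1 and 11 of 12 Cidea counts lay in the highest 5% of spots. Adipoq, Ucp1 and Cidea were among the 9 markers that ranked the spots. Their place in the highest spots thus follows in part from the ranking and is no separate evidence of a cell type.

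Other cell types moved with these spots. Cardiac muscle markers summed to 136 CP10k there and 8.68 in alveolar spots, smooth muscle markers to 37.8 against 4.16 and airway markers to 75.8 against 25.3. Control spots high in cardiac or smooth muscle markers, which can also be adipocyte-marker spots, had raised levels too. Fasn was at 7.32 and 8.31 CP10k in them and Scd1 at 7.77 and 5.73, with spot medians for Fasn of 2.63 and 2.32. The sorting had kept airway spots, and most spots high in muscle markers, out of the alveolar spots, so part of the marker gaps was set in advance. The part of these cell types in the result was not tested. In the metastatic section adipocyte markers were sparse: Adipoq was found in 3 spots, and the highest 5% held 5.84% of Fasn and 5.44% of Scd1 counts, with 4.88% of all counts. Outside the highest 10%, Fasn was 2.00 CP10k in the control and 1.87 in the metastatic section, whereas over whole sections it was 3.01 and 1.89.

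**Figure D3:**
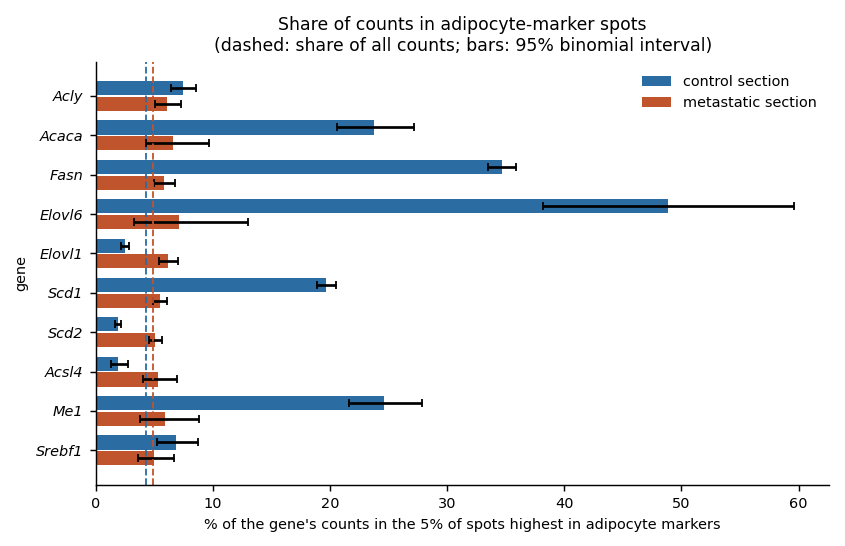
Percent of each gene's counts (bars, with 95% binomial intervals) that lie in the 5% of spots highest in adipocyte markers, for the control and metastatic section, with the share of all counts in those spots as dashed lines. In the control section Elovl6, Fasn, Me1, Acaca and Scd1 lie between 19.7% and 48.9%, far right of the dashed line at 4.25%, and Scd2, Acsl4 and Elovl1 lie left of it.

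Of the 45 further lipid genes compared, 16 were at least 1.5-fold higher in these spots and 10 lower, beside 12.2% and 38.6% of all genes tested. Thrsp (35.1 times its alveolar level) and Dgat2 (20.4) led, followed by Lpl, the lipase that frees fatty acids from lipoproteins (6.82), Mlxipl, which encodes the glucose-sensing factor ChREBP (5.72), Slc25a1, the mitochondrial citrate carrier (5.71), the acyl-CoA synthetase Acsl1 (5.34), Acacb, the carboxylase tied to fatty acid oxidation (4.67), and the malic enzyme Me3 (4.40).

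Airway spots were compared next with alveolar spots. In the control section Fasn was 3.59 CP10k in airway and 2.38 in alveolar spots, a ratio of 1.51 (1.41-1.60), and Me1 had a ratio of 1.63 (1.36-1.95). Scd2 was 0.802 against 5.70, a ratio of 0.141 (0.125-0.158), and Elovl1 (0.268), Acsl4 (0.335), Srebf1 (0.477), Scd1 (0.566) and Acly (0.577) were lower too. That made 2 of 10 higher and 6 lower, beside 7.38% and 73.7% of all genes tested. In the metastatic section 0 of 9 were higher and 8 lower, beside 4.29% and 68.4%, with Fasn at 0.962 against 1.85 CP10k (0.521, 0.452-0.597), Scd1 at 0.275 and Scd2 at 0.349.

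Fasn thus went opposite ways in the 2 sections, and the difference rested on adipocyte-marker spots, of which 33 of the 94 lay among the control airway spots. Without them control airway Fasn was 0.832 CP10k and its ratio 0.352 (0.311-0.397), Scd1 moved from 0.566 to 0.186 (0.164-0.209), Acaca from 1.00 to 0.296 and Me1 from 1.63 to 1.02. Scd2 stayed at 0.145. Single spots showed the same skew: the median control airway spot had 0.897 CP10k of Fasn while the pooled level was 3.59 and a single spot held 280 counts.

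The size of the airway ratios also depended on Scgb1a1. Without it in the library size, and with all spots, Fasn was at 2.78, Me1 at 3.01, Acaca at 1.85 and Elovl6 at 2.34 in the control section, and Fasn at 0.898 (0.780-1.03) and Me1 at 1.502 (1.09-2.04) in the metastatic section. With it left out of the library size and adipocyte-marker spots left out, Scd2 was at 0.284 in the control and 0.595 in the metastatic section, Scd1 at 0.362 and 0.473, and Elovl1 at 0.522 and 0.633, all still under 1 with their intervals. Acly was then at 0.905 and 1.09, with intervals including 1, and Fasn at 0.688 (0.608-0.776) and 0.847 (0.731-0.978). Me1 alone lay above 1 in both sections, at 2.00 (1.58-2.50) and 1.45 (1.04-1.99).

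Of the wider list, 5 of 45 genes were higher and 25 lower in control airway spots, and 3 of 40 higher and 28 lower in metastatic ones. Over all genes tested, 7.38% were higher and 73.7% lower in the control, and 4.29% and 68.4% in the metastatic section. The numbers of lower genes were near or under these shares. Lpcat1, an enzyme that remodels surfactant phosphatidylcholine (0.15 and 0.30), Fabp5 (0.26 and 0.29), Lpin1 (0.24 and 0.39) and Cd36, a fatty acid receptor of capillaries and macrophages (0.23 and 0.36), were lower in both. The 3 genes higher in both, named after their values were seen, were Acss2, which makes acetyl-CoA from acetate (1.63 and 1.79), Acsl1 (2.56 and 1.82) and Acsl3 (1.69, and 1.5, at the limit).

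Alveolar spots of the metastatic section, over 500 µm from the core, were then set against those of the control section. Elovl1 was 2.88 against 4.54 CP10k, a ratio of 0.635 (0.604-0.666), and Elovl6 was 0.0553 against 0.0284, a ratio of 1.95 (1.23-3.09) from 42 and 39 counts. The other 8 lay between 0.775 (Fasn) and 1.31 (Srebf1), so that 1 of 10 was higher and 1 lower, where 3.82% and 10.3% of all genes tested were. Without Scgb1a1 in the library size, Elovl1 was at 0.698, Fasn at 0.852, Srebf1 at 1.44, and no member was 1.5-fold lower. Each value here rests on 1 section per condition. Of the wider list 1 gene was higher and 4 lower, among them Thrsp (0.21), Gpam (0.62) and Lpcat1 (0.66).

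In the metastatic core, both desaturases were low. Scd1 was 0.934 CP10k (0.777-1.11) against 3.76 in far lung, a ratio of 0.249 (0.206-0.297), Scd2 was 1.94 against 4.36 (0.445, 0.392-0.505), and Elovl1 was 1.24 against 2.49 (0.498). Acly was higher, at 2.08 against 1.09 (1.91, 1.67-2.17), as was Elovl6, at 0.316 against 0.0525 (6.03, 3.97-9.08, from 42 and 61 counts). Fasn was 2.36 against 1.67, a ratio of 1.41 (1.25-1.59). Acaca, Srebf1, Me1 and Acsl4 lay between 0.978 and 1.22 with intervals that included 1. The 2 members at least 1.5-fold higher and 3 lower stood beside 33.0% and 28.4% of all genes tested, so these counts were near the background.

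Without Scgb1a1 in the library size, the core ratio of Fasn was 1.09, that of Acly 1.48 and that of Elovl6 4.66, while Scd1 was at 0.192, Scd2 at 0.344, Elovl1 at 0.385 and Srebf1 at 0.756 (0.584-0.966). The AT2 markers Sftpc and Lamp3 summed to 12.7 CP10k in the core and 144 in far lung, macrophage markers to 17.7 and 4.97, alveolar type I (AT1) cell markers to 1.77 and 35.5, neutrophil markers to 1.60 and 23.5, and red blood cell markers to 16.0 and 490.4. Sftpc and the AT1 markers Ager, Hopx and Rtkn2 were also among the lung structure genes that chose the core. The part of these cell types in the ratios was not tested. Around the largest metastasis alone, Scd1 was at 0.189.

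In the margin, Fasn was 3.22 CP10k (2.89-3.57) against 1.67 in far lung, a ratio of 1.93 (1.71-2.16). Acly was 1.94 (ratio 1.78, 1.53-2.06), Acsl4 0.985 (1.502, 1.22-1.84) and Elovl6 0.190 (3.61, 2.09-6.02, from 21 counts), which made 4 of 10 members higher. Scd2 was lower at 2.57 against 4.36 (0.588, 0.520-0.663), and Scd1 was at 3.70 against 3.76 (0.985, 0.888-1.09). These counts stood beside 35.3% of all genes tested at least 1.5-fold higher and 19.6% lower, and were near that background too. Other cell types moved with the margin: macrophage markers summed to 17.4 CP10k, against 4.97 in far lung, while AT2 markers (102 against 144), AT1 markers (10.4 against 35.5), lipofibroblast markers (2.15 against 6.35), neutrophil markers (7.14 against 23.5) and red blood cell markers (48.0 against 490.4) were lower. Their part was not tested. With Scgb1a1 out of the library size Fasn was at 1.49, Acly at 1.38, Acsl4 at 1.16, Scd2 at 0.455 and Scd1 at 0.762 (0.687-0.844), and Elovl6 (2.80) was the 1 member still 1.5-fold higher. With a core of 152 spots from clustering, which contained all 59, no member was 1.5-fold higher or lower in the margin, with Fasn at 1.37 and Scd2 at 0.958.

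Against the core itself, a comparison added after the data were seen, margin spots had 3.96 times (3.24-4.89) the Scd1 level and 2.06 times (1.69-2.51) that of Elovl1, and 0.599 times (0.337-1.03) that of Elovl6. That was 2 of 10 higher and 1 lower, beside 14.4% and 5.72% of all genes tested. Fasn was at 1.36 (1.17-1.59) and Acly at 0.934.

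Of the wider list, 9 of 43 genes were higher in the core, led by Hacd1, a dehydratase of chain elongation (4.83). The 21 lower genes included Cd36 (0.08), Acss2 (0.14), the desaturase gene Fads3 (0.23) and Gpam (0.23). In the margin 11 of 44 were higher, among them Hacd1 (3.82), the malic enzyme Me2 (2.70) and Plin2, which coats lipid droplets (2.21), and 9 were lower, Acss2 (0.17) and Cd36 (0.29) the most. The median log2 ratio of the list was -0.57 in the core and -0.08 in the margin, beside 0.17 and 0.32 over all genes. Of all genes tested, 33.0% were higher and 28.4% lower in the core, and 35.3% and 19.6% in the margin. The margin counts of the list were near or under these shares.

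Promoters of Fasn and Acly are shown because these were the members with over 100 margin counts and the largest margin ratios. Both genes lie on the minus strand of chromosome 11, Fasn at chr11:120805958-120825166 and Acly at chr11:100476352-100528000 (RefSeq, GRCm38.p6). The windows run from 250 bases before to 50 after the start site, chr11:120824498-120824797 and chr11:100527951-100528250, the Fasn window following a start site 619 bases inside the gene's outer boundary, with CCAAT boxes (either strand) in capitals for Fasn and GC boxes (GGGCGG, either strand) for Acly.
Fasn: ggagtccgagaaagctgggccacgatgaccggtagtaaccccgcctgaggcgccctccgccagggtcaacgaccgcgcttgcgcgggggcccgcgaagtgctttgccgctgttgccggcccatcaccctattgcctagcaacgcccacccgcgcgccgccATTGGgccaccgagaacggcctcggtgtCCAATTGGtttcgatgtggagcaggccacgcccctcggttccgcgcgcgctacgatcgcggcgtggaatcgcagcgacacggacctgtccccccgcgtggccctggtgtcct
Acly: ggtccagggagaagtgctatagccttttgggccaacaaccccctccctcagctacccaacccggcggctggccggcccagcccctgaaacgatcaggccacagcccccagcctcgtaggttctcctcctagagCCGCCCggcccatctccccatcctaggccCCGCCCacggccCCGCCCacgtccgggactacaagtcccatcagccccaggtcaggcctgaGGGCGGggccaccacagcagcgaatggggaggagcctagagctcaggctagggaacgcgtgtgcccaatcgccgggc
Fasn held CCAAT matches at -90, -62 and -59 from the start, the last 2 overlapping as a palindrome, and no GC box. Acly held GC boxes at -117, -88, -76 and -27. CCAAT occurred in 37.4% and the GC box in 35.7% of the 32851 windows of the table. The exact sterol regulatory element of the LDL receptor gene, TCACCCCAC, and the E-box CACGTG were in none of the 12 windows of the 8 members that the table lists. They were in 0.551% and 7.15% of all windows. An exact search of 300 bases cannot find variant or more distant sites, so it does not show that such sites are absent. Scd1 and Scd2 were not among these 8.

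Distance rings, each 100 µm wide and named by its outer edge, were used to ask whether any gene followed Fasn around the metastases. The ring within 200 µm is thus only the outer part of the margin. Fasn was 2.36 CP10k in the core, 3.04 within 100 µm, highest at 3.50 (2.96-4.11, 30 spots) within 200 µm, 2.80 and 3.11 in the next 2 rings, 2.29 within 500 µm and 1.41 (0.929-2.05) within 600 µm. Beyond 1000 µm it was 1.69 (1.61-1.77, 808 spots). With Scgb1a1 out of the library size the ring within 200 µm had 3.51 and spots beyond 1000 µm 2.20, so a raised zone was left with a smaller contrast. Around the largest metastasis alone that ring was at 4.09. The place of the highest ring followed the core: within 300 µm with a core of the highest 4% of spots, within 100 µm with 8%, and in the core itself with the clustered core.

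Most other members were highest elsewhere. Acly was highest within 100 µm (2.33), Acsl4 within 200 µm (1.12), Scd1 within 300 µm (5.73), Scd2 and Srebf1 within 400 µm (7.675 and 0.779) and Elovl6 in the core. Elovl1 went from 1.24 in the core to 3.96 within 500 µm. Over the 12 rings, Pearson's r with Fasn was 0.61 for Acsl4, 0.49 for Acly, 0.46 for Elovl6, 0.40 for Srebf1, 0.30 for Scd1 and -0.18 for Scd2. Without Scgb1a1 in the library size it was 0.09 for Acsl4, 0.12 for Acly, 0.30 for Elovl6 and -0.36 for Scd2. Rings share a section and a scale, so these values describe the curves only.

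**Figure D4:**
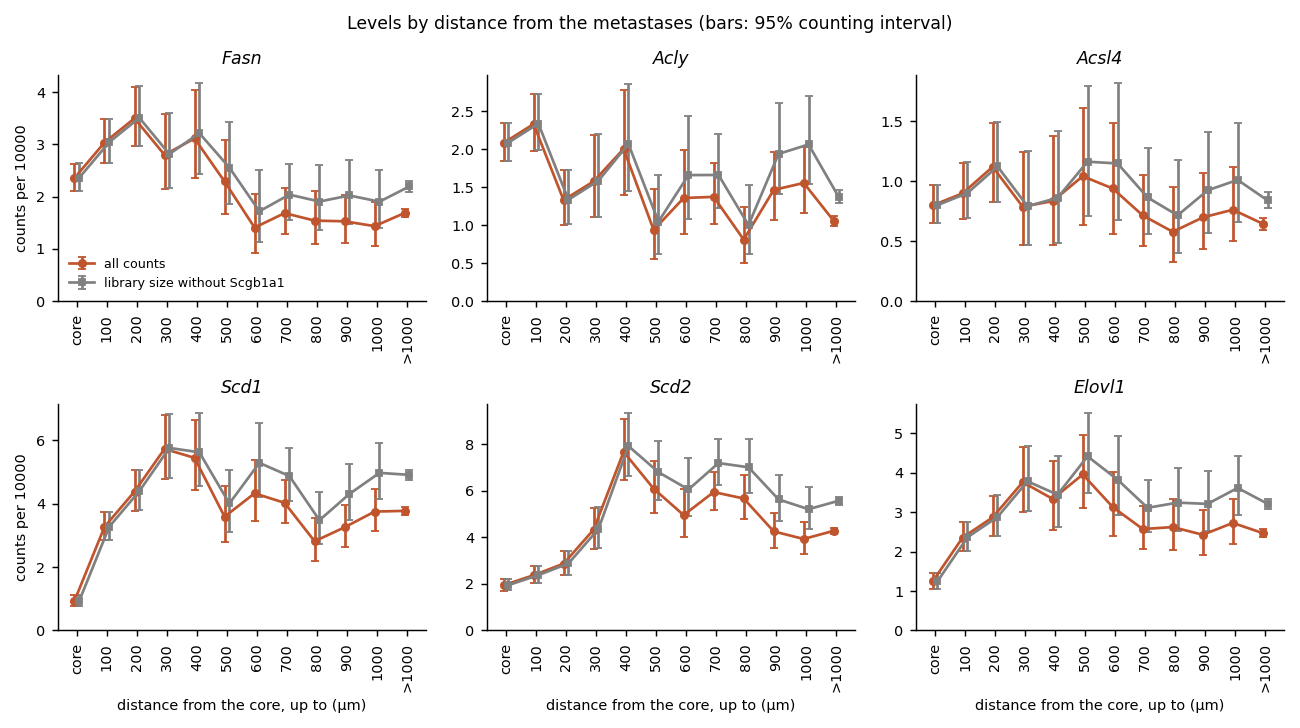
Counts per 10000 (y axis, from 0) of 6 of the genes by distance from the nearest core spot (x axis, rings of 100 µm), over all counts and with Scgb1a1 left out of the library size, with 95% Poisson intervals. Fasn peaks at 3.50 within 200 µm, while Scd1 and Scd2 climb from 0.934 and 1.94 in the core to 5.73 and 7.675 within 300 and 400 µm.

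Margin and far lung were also compared within 3 ranges of AT2 score, with 36, 21 and 18 margin spots from low to high. The ranges narrowed the gap in AT2 content without closing it: Sftpc in the margin was 0.632, 0.725 and 0.841 times its far-lung level from low to high, and Lamp3 1.39, 1.303 and 1.00 times. Without Scgb1a1 in the library size Sftpc was at 0.377, 0.629 and 0.778.

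Fasn was higher in the margin in each range, by 2.52 (2.09-3.02), 1.73 (1.40-2.12) and 1.71 (1.37-2.13), and by at least 1.5 in each, and 1.58 in the high range, without Scgb1a1. Acly had ratios of 2.59, 1.60 and 1.11, and without Scgb1a1 1.54, 1.39 and 1.03. Acsl4 was at 1.42, 1.62 and 1.63, and without Scgb1a1 at 0.844 in the low range, 1.40 in the middle and at least 1.5 in the high range. Scd1 was at 1.19, 0.934 and 1.07, with every interval including 1, but without Scgb1a1 it was lower in the low (0.711, 0.577-0.870) and middle range (0.811, 0.678-0.963) and at 0.985 in the high range. Scd2 was at 0.977 in the low range and 0.470 (0.373-0.586) and 0.466 (0.363-0.589) in the others, and at 0.583, 0.408 and 0.430 without Scgb1a1. Mki67, a division marker, was 8.74, 5.97 and 6.87 times its far-lung level in the margin, and its part was not tested.

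Scd1 and Scd2 lie in a cluster of desaturase genes, at chr19:44394450-44407709 and chr19:44293676-44306864, 87586 bases apart with Scd4 between them, and encode the same enzyme activity. Scd3 and Scd4 were hardly counted, with 1 and 11 counts in the control and 1 and 10 in the metastatic section. The share of Scd1 in the sum of Scd1 and Scd2 counts does not depend on the library size, and was read only between kinds of spot. It was 41.3% (40.3-42.3%) in the other alveolar spots of the control section, 47.8% (46.2-49.3%) in its AT2-rich spots and 90.8% (89.4-92.1%) in adipocyte-marker spots. Control spots high in cardiac and smooth muscle markers, which can also be adipocyte-marker spots, had 76.5% and 76.8%. The 75.3% of control airway spots came down to 49.0% without adipocyte-marker spots.

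In the metastatic section the share was 50.4% in AT2-rich and 45.2% in the other alveolar spots, so that AT2-rich spots stood higher in both sections. Airway spots had 40.9% (37.4-44.5%). The core had 32.5% (27.8-37.4%), the margin 59.1% (55.3-62.8%) and far lung 46.3% (45.3-47.3%). With the smaller core of the highest 4% of spots, core and margin were at 25.8% and 42.1%, and with the clustered core at 49.4% and 52.3%, so the margin's place above far lung depended on where the core was drawn.

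**Figure D5:**
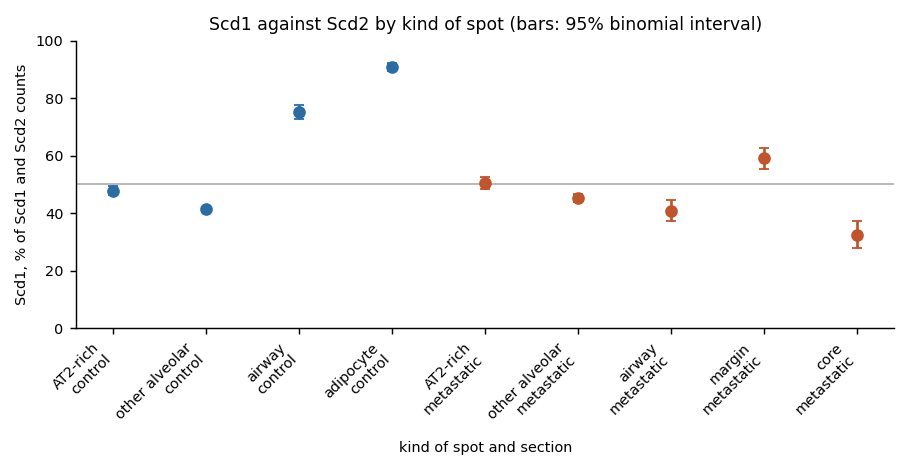
Scd1 as a percent of Scd1 and Scd2 counts (y axis, 0 to 100) in 4 kinds of spot of the control section and 5 of the metastatic section, with 95% binomial intervals and a line at equal counts. The adipocyte-marker spots stand at 90.8%, the margin at 59.1% and the core at 32.5%.

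Genes most like Fasn, Scd1 and Scd2 were ranked by Pearson's r of log2 levels over 19 kinds of spot in both sections, which overlap in spots, among 8268 genes. Slc25a1 (0.95), Me1 (0.93), Pepd (0.90), Acaca (0.90) and Htra3 (0.90) were most like Fasn. The closest to Scd1 were Lipe (0.95), a lipase of fat cells, Acbd4, Pex16, Aamdc and Slc2a8, and to Scd2 Plscr3 (0.98), Msn, Fermt2, Macf1 and Ubl3. Without the control adipocyte, cardiac muscle and smooth muscle spots, Fasn was most like Mecr (0.78), with no member among its 5. Scd1 was then most like Synrg, Ro60, Ctsh, Lipe and the AT2 marker Lamp3 (each 0.93), so Lipe stayed among its 5. Among the members themselves, Elovl1 with Scd2 (0.90) and with Scd1 (0.88) then had the highest values, and Fasn had 0.40 with Scd1 and 0.06 with Scd2.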

How the data were processed

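The deposited values were unnormalized molecule counts for each gene in each tissue-covered spot, which the authors made with Space Ranger 1.3.1 on mm10 per the labels. Counts of a gene were summed over a kind of spot and divided by the summed total counts times 10000 (CP10k). Levels carry exact 95% Poisson intervals, and ratios and shares carry exact binomial (Clopper-Pearson) intervals, in ratios for how the summed counts divide between the groups; all cover counting error only. A gene counted as higher or lower at 1.5-fold, with at least 50 counts over both groups. Marker scores were means of z-scored log CP10k over each list. The members and lists, the rule for named genes (members, then at most 8 further lipid genes past the fold per comparison) and the settings were chosen with earlier results of these data known. The ratio code was tested on simulated data. Positions and promoters came from RefSeq (GRCm38.p6). Work was done in Python 3.11.15 (matplotlib 3.10.9, scikit-learn 1.9.0, pandas 2.3.3; scipy 1.17.1, numpy 2.4.6). With 1 section per condition no test over samples was run.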

Additional observations from a re-analysis of the deposited data

Results flagged for a closer look

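Fasn went opposite ways in airway spots of the 2 sections: its airway level was 1.51 times the alveolar level in the control section and 0.521 times in the metastatic section, with both intervals clear of 1. The difference was not tested, since there was 1 section per condition. Without the adipocyte-marker spots, of which 33 were control airway spots, the control ratio was 0.352.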

How the results depend on the processing

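Of 1900 ratios of single members under an alternative, 1659 stayed within the counting interval of the value given above and 230 left it. The other 11, which had been at least 1.5-fold, turned to the other side of 1. Ratios nearer 1 that crossed it, such as metastatic airway Me1, from 0.871 to 1.502 without Scgb1a1, are among the 230. Of 673 counts and summary values, 576 stayed near theirs. Each setting was paired with nearly every comparison, also where it could not alter the value, as with the core size in the control section. These tallies therefore overstate how stable the values were. The airway ratios turned most. With Scgb1a1 out of the library size, Acly was at 1.07 in airway spots of the control and at 1.08 in the metastatic section, and Scd1 at 1.04 in the control. With haemoglobin, mitochondrial, surfactant protein and immunoglobulin genes also out, metastatic Acly was at 1.02. With the mean over spots Scd1 was at 1.07 and with spots thinned to 5000 counts at 1.05, while thinned Elovl6 was at 1.75 in the margin over the core (362 of 1888 control and 82 of 1110 metastatic spots were shallower and left out). Without adipocyte-marker spots control Fasn was at 0.352, and with Scgb1a1 out as well, a setting added after the data were seen, at 0.688, with metastatic Acly at 1.09 and Acsl4 at 1.01.

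Counts of members past the fold moved as follows (first control, then metastatic section where both are named). Without Scgb1a1, 1 and 0 were higher in AT2-rich spots, 4 and 1 higher and 3 and 3 lower in airway spots, 1 higher in the core, 1 higher in the margin and 0 lower between alveolar spots; without all abundant genes these were 0 and 0, 4 higher in control airway, 3 and 3 lower, 1, 1 and 0. With means over spots, 1 was higher in control AT2-rich spots and 4 higher and 3 lower in control airway spots. With thinning, 1 was higher in the core, 2 in the margin, and 0 lower in the margin over the core. The AT2 score from other markers gave 3 higher in metastatic AT2-rich spots, Sftpc alone 5 and 3, Lamp3 alone 0 and 2, and both single genes 1 higher in control airway spots. AT2-rich shares of 10% gave 5 and 3, and 30% gave 2 in the metastatic section and 1 in control airway spots. Airway shares of 5% gave 4 and 2 in AT2-rich and 0 in control airway spots, and 15% gave 1 there. A core of 4% gave 2 lower in the margin over far lung and 0 lower over the core, 8% gave 0 lower in the margin and 2 higher in metastatic AT2-rich spots, and the clustered core 3 there, 0 higher and 0 lower in the margin and 2 lower over the core. At 1.3-fold, 7 and 7 were higher in AT2-rich spots, 2 between alveolar spots and 4 in the margin over the core. At 2-fold, 0 and 0 were higher in AT2-rich and 0 in control airway spots, 3 lower in metastatic airway spots, 1 higher in the core, 1 higher and 0 lower in the margin, 0 either way between alveolar spots and 0 lower in the margin over the core. A minimum of 200 counts gave 1 higher in the core, 0 between alveolar spots and 0 lower over the core. Without adipocyte-marker spots 0 were higher in control airway spots, and with Scgb1a1 out too 1, with 3 lower in metastatic ones.

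The control airway share of Scd1 was 78.1% and 66.1% with airway shares of 5% and 15%, 81.2% after thinning and 49.0% without adipocyte-marker spots. The core share was 25.8% with the 4% core, 26.7% in the largest metastasis and 49.4% with the clustered core, and the margin share 42.1% and 52.3% with the 4% and clustered cores. Between the highest and lowest AT2 bins, Scd1 was at 1.92 and 2.22 without Scgb1a1, 1.73 and 2.24 without abundant genes, 1.77 and 2.21 by Lamp3, 3.18 and 3.80 with 5% and 1.95 and 2.48 with 15% airway spots, and 2.50 by Sftpc in the control section. Fasn was at 1.72 and 1.38, 1.54 and 1.39, and 1.63 and 1.46 in the first 3 of these, and in the control section at 2.32 by Sftpc and 2.45 with 5% airway spots. The ring where Fasn was highest lay within 300 µm with the 4% core, within 100 µm with the 8% core and at 0 µm, in the core, with the clustered core. The cause was not tested.

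No paired analysis was possible because each condition had 1 section. The metastases of 3 and 2 spots were too small to be analysed alone. With a median near 10000 counts per spot, a gene at 1 CP10k gives about 1 count in a spot, so Elovl6, with 90 and 127 counts in all, limits every statement about it. Kinds of spot were rebuilt from markers, so spots near a border can hold both sides.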
